A study of Mus musculus with 30 samples.

Results

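The mammalian circadian clock is a loop of transcription in which activators switch on the genes of their own repressors, and 10 repressor genes of this loop, among the 46078 genes of the count table, are described here in the mouse colon. They are the period genes Per1, Per2 and Per3, the cryptochrome genes Cry1 and Cry2, Ciart (also called Chrono), the Rev-erb genes Nr1d1 and Nr1d2, and the Dec genes Bhlhe40 and Bhlhe41. They were chosen by name for their known role in the clock, with earlier results of these data known. The list was therefore not blind to the measured values. Of the members, 10 of 10 were found in the table and passed the filter on low counts in each comparison.

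The proteins Clock and Bmal1 (gene Arntl), or Npas2 in place of Clock, bind E-box sequences and activate the period, cryptochrome, Ciart, Rev-erb and Dec genes. Period and cryptochrome proteins form complexes that block the activators, Ciart binds Bmal1 and represses it, the Dec proteins compete for E-boxes, and the Rev-erb receptors repress Arntl, Npas2 and Nfil3 through another element. In the intestine the clock is known to time digestion, absorption and renewal of the epithelium, and meal times and diet act on it.

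RNA-seq was done on the colon of 30 C57BL/6J mice, 1 library per mouse and 6 mice in each of 5 groups. CD F and CD M were females and males fed a control diet (CD) for 13 weeks, HFD F and HFD M were females and males fed a high-fat diet (HFD) for as long, and HFD+E2 M were males on HFD. All groups were injected 9 times during the last 3 weeks, HFD+E2 M with 0.5 mg/kg 17β-estradiol (E2) and the other 4 groups with vehicle. No library came from females given E2 or from CD males given E2. According to the study's methods, the mice entered it young, the females kept their ovaries and their estrous stage was not followed, and all mice were killed at the same time of day, so each value is a single time point and not a rhythm.

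The libraries held from 8667177 to 17243712 counts on genes (median 11530915), and mitochondrial genes took from 26.1% to 38.0% of them. The sum of 10 genes of the colon epithelium lay between 2406 and 4445 TPM (transcript abundance scaled to gene length and to the library's total), so each library held colon epithelium. Of these genes Muc2 had the highest median, 2106 TPM, and Cdx2 the lowest, 0.114 TPM, with 0 counts in 5 libraries. The sum of 10 smooth muscle genes was lower in CD F, from 2589 to 4023 TPM, than in CD M, from 4093 to 6800 TPM, without overlap. The sum of 14 genes of stratified squamous epithelium stayed at or under 15.4 TPM in the CD and HFD+E2 M groups and exceeded 100 TPM in 4 HFD F libraries, up to 1759 TPM, and in 2 HFD M libraries, up to 668.5 TPM. In such bulk tissue, fewer cells of a type and less RNA per cell cannot be told apart.

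The promoters of the members are shown because the activators are known to act on them there. RefSeq windows of 250 bases before to 50 bases after an annotated start (GRCm38.p6) were found for 8 of the 10 members, and were scanned on both strands for the E-box CACGTG, its variant CACGTT, the D-box TTATGTAA and its variant TTACGTAA, to which the PAR bZIP factors Dbp, Tef and Hlf and their antagonist Nfil3 bind, and the core of the Rev-erb element, TAGGTCA. The 250 bases before the start follow, 5′ to 3′, for the 3 members that are later set apart by their relation to Arntl and for Cry1, which ran the other way in several comparisons, with each match in capitals.
Ciart, chr3:95882229-95882478, minus strand: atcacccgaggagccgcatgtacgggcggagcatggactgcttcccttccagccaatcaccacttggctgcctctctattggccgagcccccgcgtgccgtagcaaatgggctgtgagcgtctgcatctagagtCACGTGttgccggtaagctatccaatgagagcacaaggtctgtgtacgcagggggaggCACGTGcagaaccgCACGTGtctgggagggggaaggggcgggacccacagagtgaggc
Per3, chr4:151044666-151044915, minus strand: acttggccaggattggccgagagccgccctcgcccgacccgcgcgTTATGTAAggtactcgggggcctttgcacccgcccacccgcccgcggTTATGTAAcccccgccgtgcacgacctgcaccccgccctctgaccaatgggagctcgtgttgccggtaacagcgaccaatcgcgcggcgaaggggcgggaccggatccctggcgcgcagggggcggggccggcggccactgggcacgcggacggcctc
Nr1d2, chr14:18239107-18239356, minus strand: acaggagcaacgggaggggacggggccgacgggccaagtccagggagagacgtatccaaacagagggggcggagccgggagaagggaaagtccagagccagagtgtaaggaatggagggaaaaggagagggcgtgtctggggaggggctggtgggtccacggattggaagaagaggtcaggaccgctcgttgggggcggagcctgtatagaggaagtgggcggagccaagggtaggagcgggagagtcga
Cry1, chr10:85185055-85185304, minus strand: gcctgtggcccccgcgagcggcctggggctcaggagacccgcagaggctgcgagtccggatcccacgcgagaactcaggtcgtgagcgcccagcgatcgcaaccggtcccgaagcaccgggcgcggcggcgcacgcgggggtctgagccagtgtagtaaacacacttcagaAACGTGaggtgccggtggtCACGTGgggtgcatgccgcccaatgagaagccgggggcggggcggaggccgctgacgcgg

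The Ciart window held 3 E-boxes, beginning at positions -116, -58 and -44 from the start. At least 3 occurred in 0.0883% of the 32851 windows of all genes, and at least 1 in 7.15%. Cry1 held 1 E-box, at -60, and the variant CACGTT on the other strand (written AACGTG), at -79. Per3 held the D-box 2 times, at -205 and -158, a number reached by 0.0213% of windows, and at least 1 D-box occurred in 0.938%. Nr1d2 held none of the 5 motifs in its window. Of the other members, Per1 (at 1 of its 2 windows) and Bhlhe41 held 1 E-box each, and Cry2 and Nr1d1 held the variant CACGTT, which occurred in 4.68% of windows. The D-box variant (0.119% of windows) and TAGGTCA (2.61%) were in none of the 8 members' windows. No promoter was printed or scanned for Per2 and Bhlhe40. A match is a stretch of letters and not a measured binding site, and a window without one says only that these letters were not in it.

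**Figure D1:**
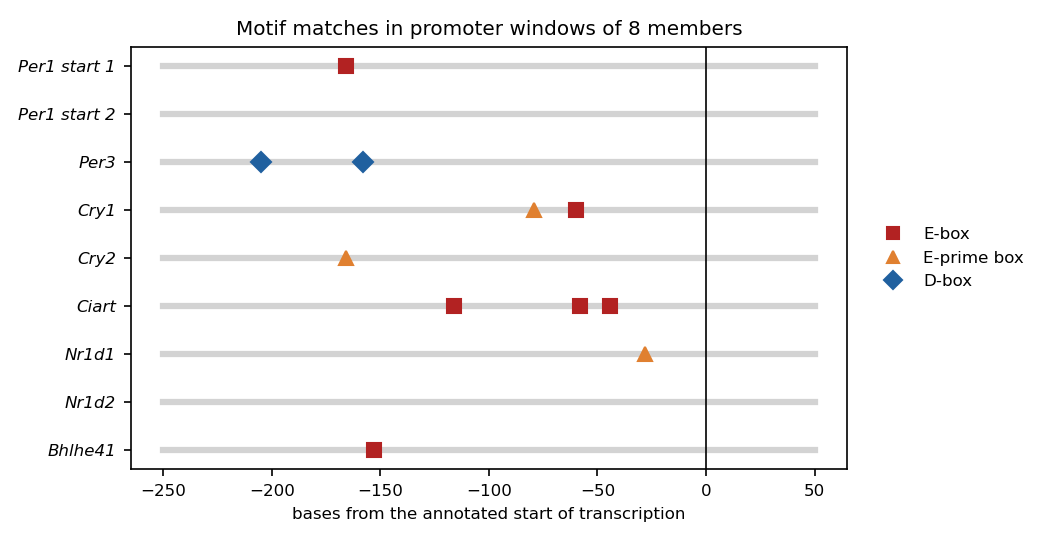
Matches to 3 motifs in the promoter windows of 8 clock repressors (rows; Per1 has 2 annotated starts), with the distance from the annotated start of transcription in bases on the horizontal axis and each symbol marking 1 match. Ciart carries 3 E-boxes between -116 and the start, Per3 2 D-boxes, and Nr1d2 none of the 3 motifs.

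Members differed widely in level. Bhlhe40 was the most abundant, with a median of 71.4 TPM over the 30 libraries, before Nr1d2 (44.2 TPM), Nr1d1 (38.6 TPM), Per3 (15.2 TPM) and Cry2 (12.4 TPM). Lower medians were those of Per2 (7.64 TPM), Per1 (7.03 TPM), Cry1 (3.46 TPM), Ciart (3.03 TPM) and Bhlhe41 (0.615 TPM). The spread over mice was of another order: Bhlhe40 varied least, its highest library being 1.91 times its lowest, and Ciart most, with a ratio of 217.

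Among the period genes, Per3 (ENSMUSG00000028957, chr4:151003652-151044665, minus strand, within the span of Camta1 without sharing exons) set CD F apart. Per3 ranged from 3.13 to 14.96 TPM (median 8.71) in CD F, from 11.8 to 24.04 TPM (median 18.0) in CD M, from 12.5 to 25.1 TPM (median 18.3) in HFD F, from 20.4 to 28.8 TPM (median 23.0) in HFD M and from 8.75 to 25.0 TPM (median 14.3) in HFD+E2 M. The CD F libraries lay mostly below the others, and the HFD M libraries were the highest and closest together. Per1 (ENSMUSG00000020893, chr11:69095217-69109960, plus strand), which responds early to light, feeding and glucocorticoids, had group means from 5.26 ± 1.34 TPM (SD, n = 6) in CD F to 9.32 ± 4.12 TPM (SD, n = 6) in HFD F. Per2 (ENSMUSG00000055866, chr1:91415982-91459324, minus strand), the partner of the cryptochromes in the repressing complex, ran from 5.98 ± 2.06 TPM (SD, n = 6) in CD F to 11.5 ± 4.03 TPM (SD, n = 6) in HFD M. The groups overlapped in Per1 and Per2.

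Of the cryptochromes, Cry1 (ENSMUSG00000020038, chr10:85131702-85185054, minus strand) had its highest mean in CD F and its widest spread there. Cry1 ranged from 2.15 to 9.86 TPM (median 6.57) in CD F, from 3.42 to 4.87 TPM (median 3.82) in CD M, from 2.86 to 5.26 TPM (median 3.03) in HFD F, from 2.36 to 7.68 TPM (median 3.62) in HFD M and from 2.54 to 5.53 TPM (median 2.79) in HFD+E2 M. CD F overlapped with every other group, since replicate 4 of CD F held the lowest value of all 30 libraries. Cry2 (ENSMUSG00000068742, chr2:92403646-92434043, minus strand) had means between 9.95 ± 2.27 TPM (SD, n = 6) in CD F and 14.3 ± 2.89 TPM (SD, n = 6) in CD M. It shares 295 exonic bases with D930015M05Rik on the opposite strand, a gene with a mean of 0.1 counts per library.

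Ciart (ENSMUSG00000038550, chr3:95878503-95882251, minus strand), the repressor that binds Bmal1 directly, showed the largest differences between groups. Its CD F libraries held 5, 3, 5, 14, 6 and 8 counts, and its CD M libraries 63, 42, 54, 45, 26 and 59 counts. In TPM, Ciart ranged from 0.0539 to 0.838 (median 0.346) in CD F, from 1.49 to 4.25 (median 3.24) in CD M, from 1.09 to 7.21 (median 2.62) in HFD F, from 3.03 to 11.7 (median 5.35) in HFD M and from 0.356 to 4.33 (median 2.20) in HFD+E2 M. CD F lay below CD M, HFD F and HFD M without overlap and met only the HFD+E2 M range, in which 1 library fell as low. With so few counts, counting error is a large part of the spread of Ciart within CD F.

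The Rev-erb genes code for nuclear receptors that bind heme and repress Arntl. Nr1d2 (Rev-erbβ, ENSMUSG00000021775, chr14:18204054-18239127, minus strand) ranged from 12.5 to 32.8 TPM (median 18.2) in CD F, from 38.8 to 59.8 TPM (median 48.8) in CD M, from 32.8 to 53.3 TPM (median 46.9) in HFD F, from 43.7 to 73.2 TPM (median 63.6) in HFD M and from 25.2 to 72.9 TPM (median 41.9) in HFD+E2 M. On this scale CD F did not overlap with CD M, whereas on log2 CPM (normalized counts scaled to library size) the ranges met, through replicate 4 of CD F. Nr1d1 (Rev-erbα, ENSMUSG00000020889, chr11:98767932-98775333, minus strand) ranged from 7.50 to 53.5 TPM (median 15.5) in CD F, from 39.2 to 59.5 TPM (median 47.0) in CD M, from 33.2 to 54.5 TPM (median 39.9) in HFD F, from 14.1 to 47.5 TPM (median 38.6) in HFD M and from 26.8 to 49.0 TPM (median 36.8) in HFD+E2 M. In CD F, 5 of the 6 libraries lay between 7.50 and 22.4 TPM and replicate 4 stood at 53.5 TPM. The 3′ end of Nr1d1 shares 263 of its 3077 exonic bases with Thra on the opposite strand, which had a mean of 26.5 TPM, and whether the counting used strand is not given in the sources used here.

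Of the Dec genes, Bhlhe40 (ENSMUSG00000030103, chr6:108660629-108666925, plus strand), which also answers to hypoxia and growth signals, was the steadiest member, with group means between 65.6 ± 11.97 TPM (SD, n = 6) in CD F and 77.8 ± 4.91 TPM (SD, n = 6) in HFD M. It shares 118 exonic bases with 0610040F04Rik on the opposite strand, which had 0.533 counts per library on average. Bhlhe41 (ENSMUSG00000030256, chr6:145858243-145865558, minus strand) had from 6 to 68 counts per library. Its means were 0.258 ± 0.167 TPM in CD F, 0.628 ± 0.242 in CD M, 0.829 ± 0.464 in HFD F, 0.905 ± 0.272 in HFD M and 0.594 ± 0.258 in HFD+E2 M (SD, n = 6 each).

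**Figure D2:**
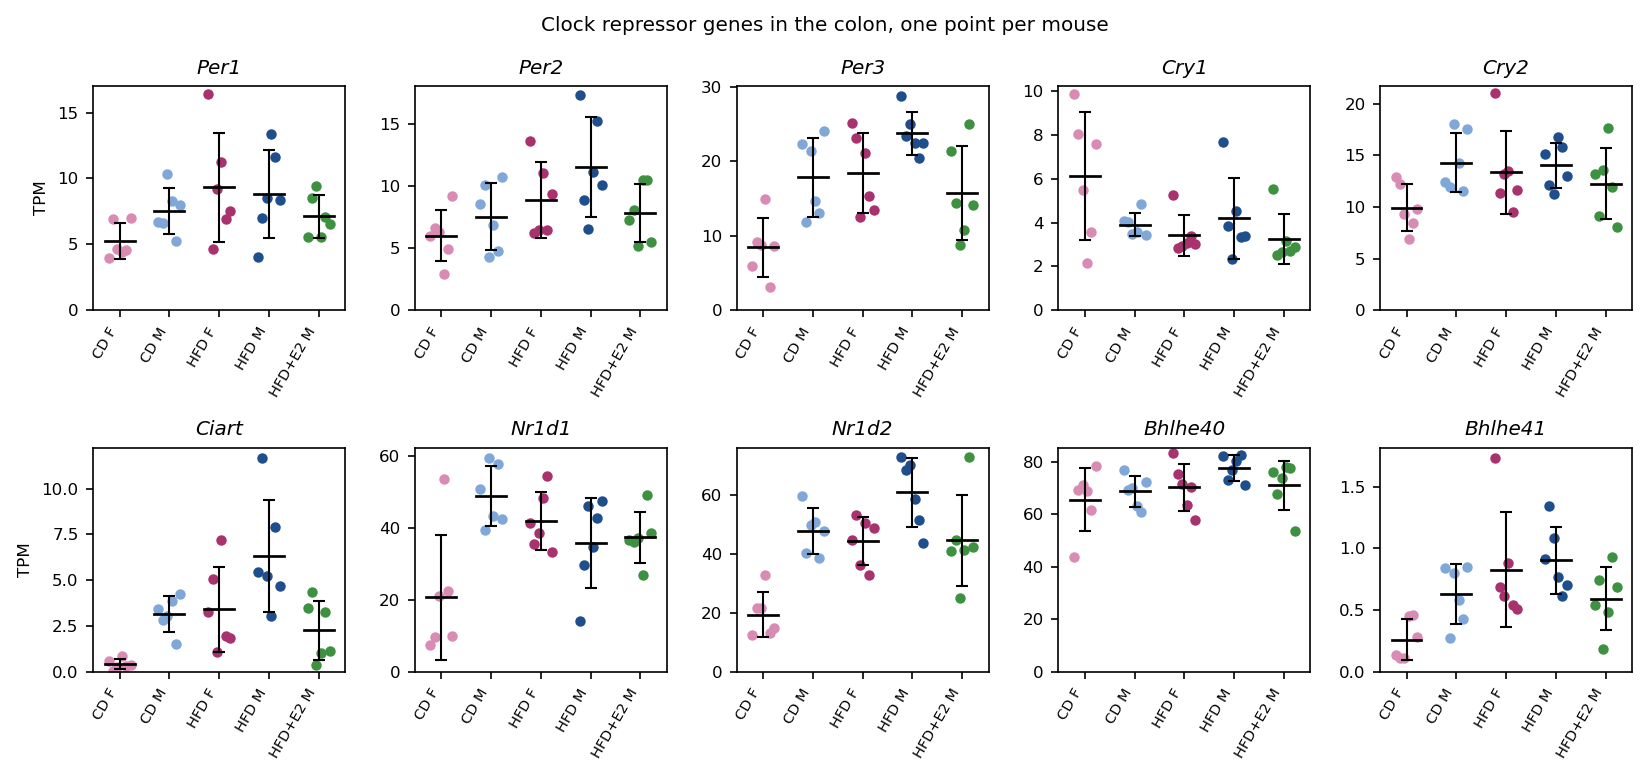
TPM of the 10 clock repressors in the 5 groups (vertical axes in TPM, starting at 0, 1 point per mouse, long bars for means and error bars for SD, n = 6). Each member except Cry1 has its lowest mean in CD F, Cry1 has its highest mean there, and replicate 4 of CD F is the point at 53.5 TPM of Nr1d1.

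The order of the groups was tested by exact permutation of log2 CPM between each pair of groups, 100 unadjusted two-sided tests whose smallest possible p-value is 0.00216. In 28 of them the p-value was under 0.05, beside 8.64% of the same tests over all genes. Of these 28, 23 were among the 40 tests with CD F on one side (10.2% over all genes) and 5 among the 60 without it (7.58% over all genes). Of the 40 pairs of groups next to each other in the order of means, 4 had a p-value under 0.05 (3.27% over all genes), each between CD F and the group next above it. These were Per3 (HFD+E2 M above CD F, exact permutation p = 0.00866), Ciart (HFD+E2 M, exact permutation p = 0.00433), Nr1d2 (HFD F, exact permutation p = 0.00866) and Bhlhe41 (HFD+E2 M, exact permutation p = 0.0173). The other neighbours in the order, which was that of mean TPM, did not reach this p-value, and with 6 mice per group that does not show them equal. The lowest were Per3 and Ciart between HFD M and HFD F (exact permutation p = 0.0519 and 0.0563) and Nr1d2 between HFD M and CD M (exact permutation p = 0.0758). Unadjusted edgeR p-values of these 3 were under 0.05. CD F lay below another group without overlap in 6 of the tests. These were 3 of 10 members against HFD M (Per3, Ciart and Bhlhe41), beside 0.791% of all genes, 2 against HFD F (Ciart and Bhlhe41), beside 0.186%, and 1 against CD M (Ciart), beside 1.45%.

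Females were compared with males on CD to ask how sex bears on these genes. Ciart and Nr1d2 were lower in CD F by an adjusted test, Per3, Nr1d1 and Bhlhe41 were lower and Cry1 higher at a looser threshold, and Per1, Per2, Cry2 and Bhlhe40 passed neither. The adjusted threshold was an edgeR p-value under 0.05 after Benjamini-Hochberg adjustment over all genes tested. The nominal threshold asked for an unadjusted p-value under 0.05 and for a log2 fold change above 0.4 or below -0.4. At the adjusted threshold 2 of 10 members were called, beside 2.92% of the 14922 genes tested. The nominal threshold called 6 of 10, 5 lower and 1 higher, beside 9.15% of genes (6.21% lower and 2.94% higher).

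Ciart had a log2 fold change of -2.61 (standard error 0.32, edgeR adjusted p = 0.000415), and it was called in 12 of 12 fits that each left out 1 library. The log2 fold change of Nr1d2 was -1.03 (standard error 0.22, edgeR adjusted p = 0.0217). Its call was lost in 1 of 12 such fits, without replicate 3 of CD M (adjusted p = 0.0534). Per3 had a log2 fold change of -0.87 (edgeR adjusted p = 0.0907), Bhlhe41 of -1.12 (adjusted p = 0.173) and Nr1d1 of -1.07 (adjusted p = 0.301). Cry1 had a log2 fold change of 0.73 (adjusted p = 0.150). The remaining log2 fold changes were -0.31 in Per1, -0.18 in Per2, -0.26 in Cry2 and 0.04 in Bhlhe40. Over the 10 members the median log2 fold change was -0.59, beside 0.01 over all genes.

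Replicate 4 of CD F ran against the other females in several members at once. It had the highest Nr1d1 (53.5 TPM), Nr1d2 (32.8 TPM), Per3 (14.96 TPM) and Ciart (0.838 TPM) of the group, and the lowest Cry1 (2.15 TPM), Per2 (2.93 TPM) and Arntl (11.2 TPM, against 21.99 to 30.7 TPM in the other 5). Without it, 5 members passed the adjusted threshold, namely Ciart, Nr1d2, Per3, Nr1d1 and Cry1, beside 350 of 15101 genes. The log2 fold change of Nr1d1 moved from -1.07 to -1.66. The nominal call of Nr1d1 was kept in 3 of 12 fits that left out 1 library, in which its log2 fold change ran from -1.66 to -0.89. It was lost without most single mice of either group, so the call lay near its threshold. With the smooth muscle score as a covariate, the log2 fold change of Ciart was -2.98 (adjusted p = 0.00277) and that of Nr1d2 -1.01 (adjusted p = 0.197). In the same fit the nominal calls of Nr1d1 (log2 fold change -0.56, standard error 0.76) and Cry1 (0.47, standard error 0.45) were lost. Their standard errors without the score were 0.46 and 0.25, and that of Nr1d2 went from 0.22 to 0.37. In all 117 genes passed the adjusted threshold in this fit. Since the smooth muscle sums of CD F and CD M did not overlap, the fit can hardly separate the score from sex. With a score of 10 B cell genes, which summed to 14.7 to 69.1 TPM in CD F and 0.888 to 55.4 TPM in CD M, the log2 fold change of Nr1d2 was -0.95 (standard error 0.27, adjusted p = 0.210), and 42 genes in all passed the adjusted threshold in that fit, against 435 without the score. In TPM the median gene had a log2 difference of -0.11 between CD F and CD M, so part of each difference in TPM is shared with all genes.

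On HFD the same comparison of females with males called 0 members at the adjusted threshold, with edgeR (0.0988% of 15179 genes) and with DESeq2. In edgeR 3 members, Per3, Ciart and Nr1d2, had an unadjusted p-value under 0.05, beside 5.09% of genes, and of these Ciart alone passed the nominal threshold, being lower in females (3.09% of genes in either direction, 1.08% lower). The Ciart log2 fold change was -0.78 (standard error 0.32, edgeR adjusted p = 0.872). Its nominal call was lost in 5 of 12 fits, without replicates 3, 5 or 6 of HFD F and without replicates 2 or 5 of HFD M. Per3 and Nr1d2 had log2 fold changes of -0.29 and -0.37, under the fold change minimum. Nr1d1, which was lower in females on CD, had a log2 fold change of 0.28 (standard error 0.29) on HFD. Leaving out the libraries that exceeded 100 TPM of squamous genes, 4 of 6 in HFD F and 2 of 6 in HFD M, left few females. In that fit Ciart kept its size and was not called (log2 fold change -0.74, standard error 0.38), and Nr1d2 stood at -0.16 (standard error 0.21).

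HFD F was compared with CD F to ask how the diet acts in females. Ciart was higher on HFD by the adjusted test, the only member among the 3 genes of 15061 that passed it (0.0199%). The log2 fold change of Ciart was 2.67 (standard error 0.39, edgeR adjusted p = 0.0332). Its 6 HFD F libraries held 54, 61, 20, 91, 35 and 36 counts, all above the highest CD F library at 14. The nominal threshold called 6 of 10 members beside 3.67% of genes, 5 higher (2.95% of genes) and 1 lower (0.724%). The higher members were Per1 (log2 fold change 0.64), Per3 (1.01), Ciart, Nr1d2 (0.95) and Bhlhe41 (1.29), and the lower one was Cry1 (-0.91). Per2 (0.42), Cry2 (0.29), Nr1d1 (0.91, standard error 0.48) and Bhlhe40 (-0.0015) were not called.

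The adjusted call of Ciart on HFD in females was lost in 8 of 12 fits that left out 1 library, in which its log2 fold change stayed between 2.42 and 3.03 and its adjusted p reached 0.137. These were the fits without replicates 1, 2, 3, 5 or 6 of CD F and without replicates 1, 4 or 6 of HFD F. Without replicate 4 of CD F, Ciart, Per3 and Nr1d2 passed, with edgeR adjusted p-values of 0.00532, 0.00805 and 0.00553, beside 10 of 15316 genes. Squamous epithelium genes moved with this comparison, from at most 7.68 TPM in CD F to between 2.44 and 1759 TPM in HFD F. Without the 4 HFD F libraries over 100 TPM, Ciart kept its size (log2 fold change 2.64, standard error 0.45, edgeR adjusted p = 0.367), while Nr1d2 stood at 1.14 and Per1 went from 0.64 to 0.21 (standard error 0.27). CD F enters both this comparison and that with CD M, so their values are not independent of each other.

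In males on HFD against CD, 0 members passed the adjusted threshold, and so did 0 of the 14991 genes tested with edgeR, whereas DESeq2 called 26 genes and 0 members. In edgeR 4 members had an unadjusted p-value under 0.05, beside 904 genes (6.03%). Of these, 3 passed the nominal threshold, each higher on HFD, beside 2.9% of genes (1.25% higher). Ciart had a log2 fold change of 0.84 (standard error 0.26, edgeR adjusted p = 0.704), Per2 of 0.62 (standard error 0.27, adjusted p = 0.823) and Per3 of 0.43 (standard error 0.14, adjusted p = 0.704). The remaining one of the 4 was Nr1d2 (0.29, standard error 0.13). The call of Ciart held in 12 of 12 fits that left out 1 library, that of Per3 in 9 and that of Per2 in 5. Without replicate 4 or replicate 5 of CD M, 1 member was called. Nr1d1 was the only member with a negative value (log2 fold change -0.44, standard error 0.28).

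Whether the response to HFD differed between the sexes was tested as an interaction over the 24 libraries of vehicle-treated mice. With edgeR 0 members and 0 of 15800 genes passed the adjusted threshold, and with DESeq2 0 members and 8 genes. In edgeR 4 members had an unadjusted p-value under 0.05, beside 1066 genes (6.75%). All 4 passed the nominal threshold, 3 with a positive and 1 with a negative difference, beside 5.18% of genes (3.71% positive and 1.47% negative). The difference of the response in females minus that in males was 1.83 for Ciart (standard error 0.48, edgeR adjusted p = 0.397), 1.35 for Nr1d1 (adjusted p = 0.694), 0.66 for Nr1d2 (adjusted p = 0.665) and -0.99 for Cry1 (adjusted p = 0.630), on the log2 scale. For Ciart both sexes had a positive value. For Cry1 the value was -0.91 in females and 0.07 in males, and for Nr1d1 0.91 in females and -0.44 in males.

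E2 was given to HFD males to ask what the hormone changes in the obese male colon. The adjusted threshold was passed by 0 members with edgeR, beside 0.00666% of 15010 genes, and by 0 with DESeq2. In edgeR 3 members had an unadjusted p-value under 0.05, beside 10.2% of genes, and of these Ciart passed the nominal threshold, being lower with E2 (5.87% of genes in either direction, 3.24% lower). Its counts were 41, 75, 15, 24, 53 and 17 in HFD+E2 M and 74, 115, 64, 47, 129 and 49 in HFD M, and the groups overlapped. The log2 fold change of Ciart was -1.11 (standard error 0.43, edgeR adjusted p = 0.461), and its call was kept in 11 of 12 fits that left out 1 library, all but that without replicate 2 of HFD M. Per3 (log2 fold change -0.39, standard error 0.14) and Nr1d2 (-0.34, standard error 0.16) fell short of the fold change minimum. Without the 2 HFD M libraries over 100 TPM of squamous genes, Per3 was called with Ciart (log2 fold changes -0.42 and -1.04). With a squamous score as a covariate Per3 was called and Ciart was not, at a log2 fold change of -0.96 (standard error 0.47). Over the 10 members, 8 had a negative value and 2 a positive one, with a median of -0.24 beside 0.00 over all genes.

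HFD+E2 M was also set against CD M, and 0 of 10 members passed either threshold, beside 5.99% of 15109 genes at the nominal and 0.212% at the adjusted one. Of the members, 0 had an unadjusted p-value under 0.05 in edgeR, beside 10.7% of genes, and 0 were called by DESeq2. The log2 fold change of Ciart was -0.26 (standard error 0.39), that of Per3 0.04 (standard error 0.19) and that of Nr1d2 -0.04 (standard error 0.15). For the same genes the values of HFD M against CD M were 0.84, 0.43 and 0.29, and those of HFD+E2 M against HFD M -1.11, -0.39 and -0.34. The 3 comparisons share their groups in pairs, so the opposite signs of the last sets are not independent of each other. In TPM the median gene had a log2 difference of -0.16 between HFD+E2 M and HFD M.

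**Figure D3:**
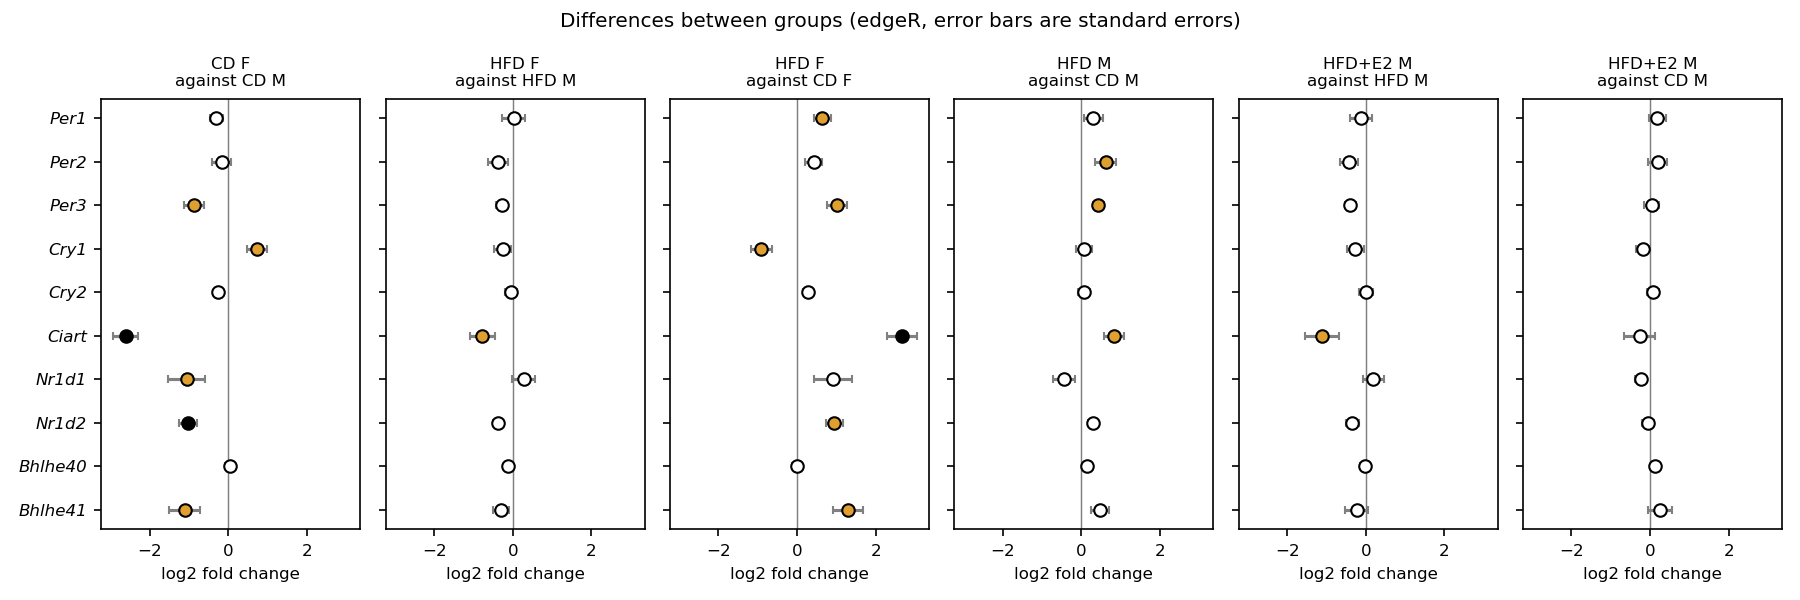
Log2 fold changes of the 10 clock repressors in 6 comparisons (horizontal axes, edgeR, 12 libraries each; error bars are standard errors). Black points passed the adjusted threshold (Ciart and Nr1d2 in CD F against CD M, Ciart in HFD F against CD F), orange points only the nominal one and white points neither.

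Since the activator Bmal1 stands on the other side of the loop, each member was set against Arntl among mice of the same group. Arntl ranged from 11.2 to 30.7 TPM in CD F, from 5.19 to 14.5 TPM in CD M, from 6.43 to 16.0 TPM in HFD F, from 3.85 to 10.5 TPM in HFD M and from 6.74 to 22.8 TPM in HFD+E2 M. In a fit over 30 libraries with a mean for each group, Ciart, Per3 and Nr1d2 were lower in mice with more Arntl. These 3 of 10 members were among the 9 genes of 16059 (0.056%) whose slope passed the adjusted threshold, and in an unadjusted edgeR test 12.6% of genes had a p-value under 0.05. For each doubling of Arntl, Ciart changed by -1.01 on the log2 scale (standard error 0.14, edgeR adjusted p = 0.000128), Per3 by -0.49 (standard error 0.08, adjusted p = 0.00702) and Nr1d2 by -0.44 (standard error 0.08, adjusted p = 0.00912).

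The other 7 members did not pass. Bhlhe41 came closest, with a slope of -0.62 (standard error 0.17, edgeR adjusted p = 0.208, DESeq2 adjusted p = 0.0359). Slopes were -0.25 in Per2, -0.20 in Nr1d1, -0.09 in Bhlhe40, 0.13 in Cry1, -0.01 in Cry2 and -0.01 in Per1. Of the 9 genes that passed, others with a place in the clock were Npas2, which pairs with Bmal1 in place of Clock (slope 0.77), and Tef, a PAR bZIP activator (-0.62). The last 4 were St5 (0.29), Itgb3 (0.35), Adam19 (0.33) and Nipal1 (-0.42), named after their values were seen.

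As correlations of log2 CPM after subtraction of group means (n = 30, permutation within groups, smallest possible p = 1e-05), Ciart had r = -0.82 (permutation p = 1e-05) and rho = -0.78 (permutation p = 1e-05) with Arntl. Per3 had r = -0.73 (permutation p = 2e-05) and rho = -0.72 (permutation p = 3e-05), and Nr1d2 r = -0.72 (permutation p = 1e-05) and rho = -0.72 (permutation p = 2e-05). Bhlhe41 had r = -0.59 (permutation p = 0.00055) and rho = -0.59 (permutation p = 0.00071). Without the 2 libraries farthest from the median of Arntl before that subtraction, replicate 2 of HFD M and replicate 1 of CD F, r was -0.81, -0.77, -0.73 and -0.56 in this order. Libraries far from their own group mean, such as replicate 4 of CD F, stayed in. In Ciart, Per3, Nr1d2 and Bhlhe41 r was negative within each of the 5 groups, 10 relations having been computed. Among the other members r lay between -0.27 (Per2 and Bhlhe40) and 0.20 (Cry1). Within CD F, Nr1d1 had r = -0.64 and Cry1 r = 0.72 over 6 mice, and within HFD M Nr1d1 had r = 0.20.

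The slopes on Arntl kept their sign when the libraries over 100 TPM of squamous genes were left out, at -1.06 for Ciart, -0.59 for Per3 and -0.49 for Nr1d2 (edgeR adjusted p-values of 0.00736, 0.00717 and 0.0446). With a smooth muscle score as a covariate they were -1.12, -0.57 and -0.52. In the 24 libraries of vehicle-treated mice alone, only Ciart passed (slope -0.86, edgeR adjusted p = 0.0275), while Per3 and Nr1d2 had slopes of -0.51 and -0.43 (adjusted p = 0.254 and 0.459). Nr1d2 also missed the threshold without replicate 4 of CD F (adjusted p = 0.0538) and without replicate 5 of HFD+E2 M (adjusted p = 0.0555).

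**Figure D4:**
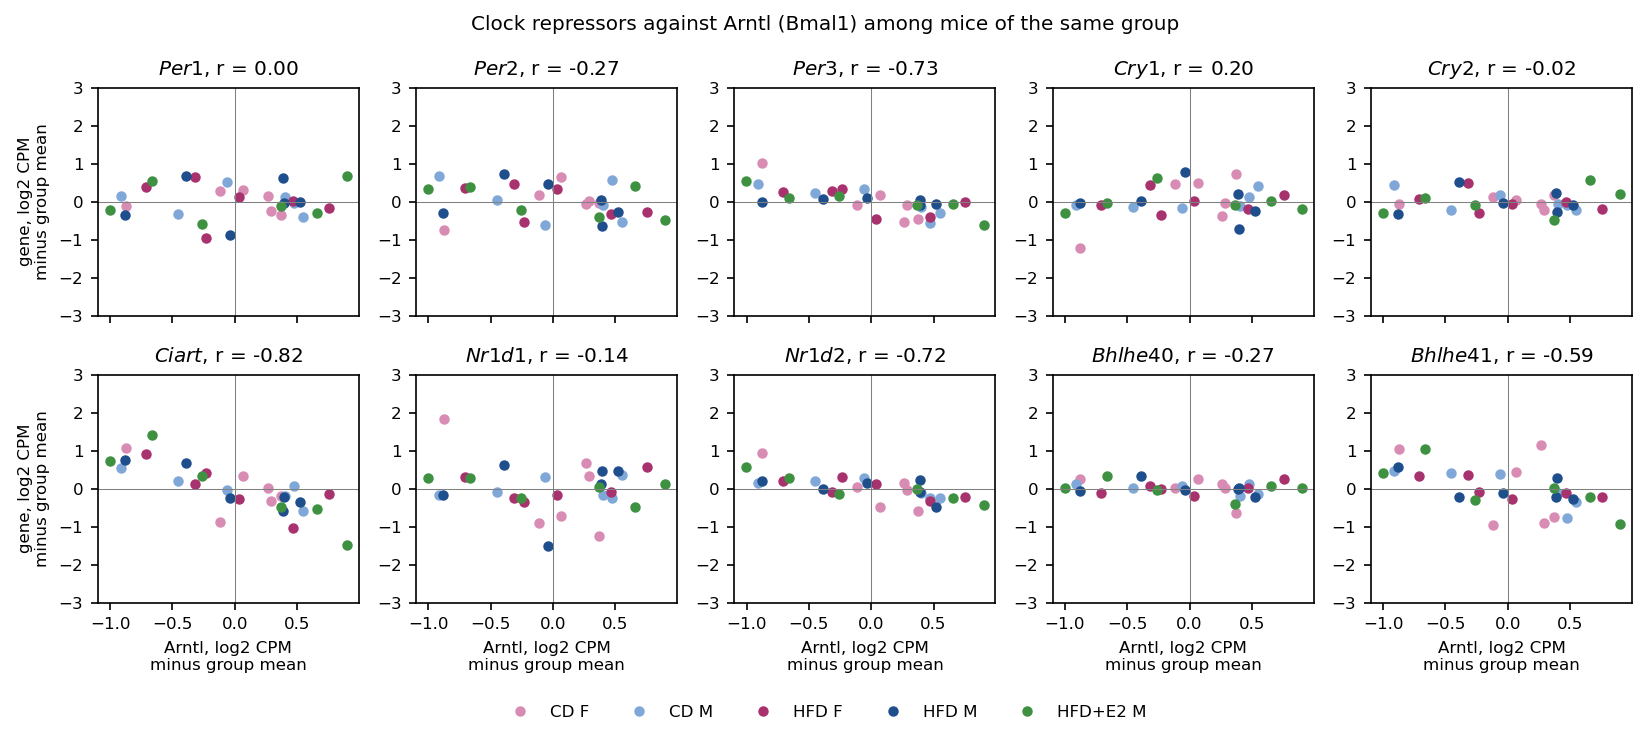
Log2 CPM of each clock repressor (vertical axes) against that of Arntl (horizontal axes), both minus the group mean, 1 point per mouse, colours for the 5 groups, with Pearson r over the 30 mice. Ciart, Per3, Nr1d2 and Bhlhe41 are lower where Arntl is higher (r from -0.82 to -0.59), and Per1 and Cry2 show no slope.

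The members did not move as 1 block between mice of the same group. Over their 45 pairs the median of r was 0.26, beside -0.0022 over all pairs of the 16060 genes, and 8 pairs exceeded 0.5, as did 5.61% of all gene pairs. Of these 8, 6 joined Ciart, Per3, Nr1d2 and Bhlhe41 with each other, with r from 0.54 to 0.68. The strongest were Per3 with Nr1d2 (r = 0.68, permutation p = 0.00058; rho = 0.60, permutation p = 0.00155) and Ciart with Bhlhe41 (r = 0.68, permutation p = 0.0001; rho = 0.64, permutation p = 0.00038). The last 2 joined Cry2 with Per1 (r = 0.55) and with Per2 (r = 0.53). That with Per1 fell to 0.43 without the 2 libraries farthest from the median of Per1 before subtraction of group means.

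Cry1 ran against the Rev-erb genes. It had r = -0.77 with Nr1d1 (permutation p = 0.00075; rho = -0.56, permutation p = 0.00768) and r = -0.59 with Nr1d2 (permutation p = 0.00769; rho = -0.47, permutation p = 0.0164). Without the 2 libraries farthest from the median of Cry1 before subtraction of group means, r was -0.72 and -0.50. Replicate 1 of HFD M showed it in single values, with 7.68 TPM of Cry1 and 14.1 TPM of Nr1d1, the highest and the lowest of its group. Replicate 4 of CD F showed the reverse, with 2.15 TPM of Cry1 and 53.5 TPM of Nr1d1. These p-values are unadjusted, and all values of a mouse share its library.

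**Figure D5:**
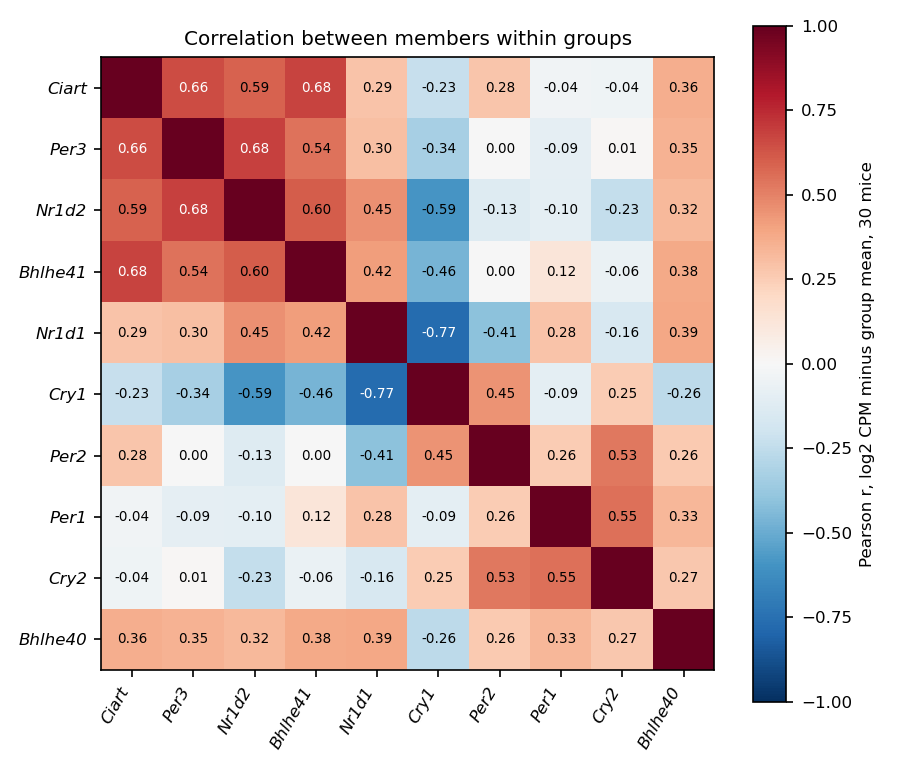
Pearson r between the 10 clock repressors over 30 mice, on log2 CPM minus the group mean (colour scale from -1 to 1, values printed in the cells). Ciart, Per3, Nr1d2 and Bhlhe41 form a block with r from 0.54 to 0.68, and Cry1 is negative with Nr1d1 (-0.77) and Nr1d2 (-0.59).

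Outside the members, the genes most like them over the 30 libraries were named by Pearson r of log2 CPM, a measure that holds differences between groups and between mice. Tef, with Dbp and Hlf the PAR bZIP activators that bind D-boxes, was the most alike gene of Per3 (r = 0.95) and of Ciart (r = 0.95). Dbp was that of Nr1d2 (r = 0.93) and of Bhlhe41 (r = 0.85). Arntl was the most opposite gene of Ciart (r = -0.90), Per3 (r = -0.86) and Nr1d2 (r = -0.85). After subtraction of group means, Tef kept r = 0.85 with Ciart and 0.85 with Per3.

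The most alike gene of Nr1d1 was Spata13, a guanine nucleotide exchange factor (r = 0.85, and 0.87 within groups), which was also the most opposite gene of Cry1 (r = -0.77). The most alike gene of Per2 was Usp2, a deubiquitinase that acts on clock proteins (r = 0.75). Those of Cry1 (Lonrf3), Per1 (Osr2), Bhlhe40 (Ppp1r15a) and Cry2 (Ankdd1b) had lower r, at 0.73, 0.72, 0.68 and 0.66. Each is the highest of some 16060 values and is given as a description.

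The other genes of the clock were counted in the same fits. In CD F against CD M, 5 passed the adjusted threshold. Of the 7 activators, Arntl (log2 fold change 1.16, edgeR adjusted p = 0.0254) and Npas2 (0.80, adjusted p = 0.0490) were higher in CD F. Of the 4 genes of the PAR bZIP group, Tef (-1.25, adjusted p = 0.00686) and Hlf (-0.998, adjusted p = 0.0255) were lower and Nfil3, their antagonist and a target of Rev-erb repression, was higher (1.64, adjusted p = 0.00383). Dbp had a log2 fold change of -1.94 and missed that threshold (adjusted p = 0.0768). None of the 13 modifiers and co-repressors tested, such as Csnk1d and Ncor1, passed either threshold, their median being -0.03. Of 8 immediate early genes, which respond within minutes to stimulation and handling, 8 had a positive value (median 0.52) and 3 passed the nominal threshold, namely Fosb, Nr4a1 and Atf3. Of 8 glucocorticoid-responsive genes 2 passed it, both higher, Errfi1 (0.47) and Cdkn1a (0.59), and of 5 output genes Lonrf3 passed it (0.60). The part of stimulation or handling in the members' differences was not tested.

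In the other comparisons 0 of these clock genes passed the adjusted threshold in edgeR, a count that covers HFD against CD in either sex, females against males on HFD, both comparisons of HFD+E2 M and the interaction. The values that follow passed the nominal threshold. In HFD F against CD F, Arntl had a log2 fold change of -1.09 (edgeR adjusted p = 0.410), Npas2 -0.84 and Nfil3 -0.98, while Tef stood at 1.38, Dbp at 1.99 and Hlf at 0.87. In HFD M against CD M, Arntl had a log2 fold change of -0.66 (edgeR adjusted p = 0.823), Npas2 -0.71 and Tef 0.57, and of the 7 activators 2 passed the nominal threshold in each direction. With E2 in HFD males, Arntl had a log2 fold change of 1.14 (edgeR adjusted p = 0.454), Npas2 0.86 and Tef -0.47. In the 3 comparisons the sign of Arntl and Npas2 was opposite to that of Ciart and Per3, and of these single values only that of Ciart in females passed the adjusted threshold.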

How the data were processed

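Colon RNA from 30 mice was sequenced with ribosomal RNA removed, and groups were taken from the labels. The authors mapped paired-end reads to GRCm38 with STAR and deposited featureCounts counts per gene, whole numbers without normalization, and TPM values from StringTie; these were made separately, so a library's TPM and counts can rank differently. The kit keeps strand, but the strand setting, the annotation release and most tool versions are not given in the sources used here.

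Counts of the 12 libraries of each comparison were fitted with edgeR 4.0.16 in R 4.3.3 (filterByExpr, TMM, robust quasi-likelihood F-test), with Benjamini-Hochberg adjustment over all genes tested. Standard errors follow from the F statistic. The interaction used 24 libraries and the slope on Arntl 30. Log2 CPM had a prior count of 2. Permutations within groups numbered 100000, and those between groups were exact. Marker sums, promoter motifs and exon overlaps (GENCODE M21) were computed from the deposited TPM and reference tables. The named genes were the 10 members, Arntl, other clock genes past the adjusted threshold or in the fixed lists, genes overlapping a member, and the 3 most alike genes and the most opposite gene of each member. The members, lists and tests were chosen with earlier results of these data known. The fit was tested on simulated data with known changes. Alternatives were DESeq2 1.42.0, its size factors, no filter, a minimum of 10 counts per library, a joint fit of all 30 libraries, the replicate number as a block, marker scores (squamous epithelium, smooth muscle, or B cells) as a covariate, each library left out, log2 TPM with 0.1 or 1 added and, chosen after seeing the data, no library over 100 TPM of squamous genes. Each library's counts correlated best with its own TPM in 30 of 30 cases. Whether mice shared litters or cages is not given. Counts are of reads without molecular identifiers.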

Additional observations from a re-analysis of the deposited data

Results flagged for a closer look

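Within each of 50 combinations of a member and a group, log2 CPM of the highest or lowest mouse was compared with the others. In 3 of them 1 mouse stood apart by more than the critical value of Dixon's ratio for 6 samples (0.625), and chance alone gives about 1 in 20. In CD F, replicate 1 had a log2 CPM of 6.52 of Bhlhe40 with the others from 7.20 to 7.43 (ratio 0.741). In HFD+E2 M, replicate 1 had a log2 CPM of 3.62 of Cry1 with the others from 2.70 to 3.04 (ratio 0.635). In HFD M, replicate 1 had a log2 CPM of 4.46 of Nr1d1 with the others from 5.81 to 6.60 (ratio 0.631). The choice of scale matters, since on TPM 5 combinations passed and only that of Cry1 in HFD+E2 M was common to both scales (ratio 0.799 on TPM). The other 4 on TPM were replicate 4 of CD F in Nr1d1 (53.5 TPM, ratio 0.676) and replicate 1 of HFD F in Cry1 (5.26 TPM, ratio 0.768), Cry2 (21.03 TPM, ratio 0.649) and Bhlhe41 (1.74 TPM, ratio 0.700).

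The response to HFD differed between the sexes at the nominal threshold, and not after adjustment, in 4 members, as the log2 change in females minus that in males. This difference was 1.83 for Ciart (edgeR adjusted p = 0.397), 1.35 for Nr1d1 (adjusted p = 0.694), 0.655 for Nr1d2 (adjusted p = 0.665) and -0.987 for Cry1 (adjusted p = 0.630).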

How the results depend on the processing

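Counts of members called are given beside those of the fits in the report. In CD F against CD M, 1 member and not 2 passed the adjusted threshold with no filter, at least 10 counts in every library, the replicate block, or the squamous, smooth muscle or B cell score, and from 1 to 5 with 1 library left out; it was Ciart in each of these except at 10 counts, where Ciart and Bhlhe41 were not tested and Nr1d2 passed. In the same comparison 3 passed with DESeq2 or all 30 libraries (Ciart, Nr1d2 and Per3), beside 776 of 27677 and 373 of 16060 genes. Over all fits of CD F against CD M, the genes called ran from 42 (B cell score) to 941 (replicate block). In HFD F against CD F, 3 and not 1 passed with DESeq2 or all 30 libraries (Ciart, Per3 and Nr1d2), beside 215 of 27955 and 86 of 16060 genes. In HFD F against CD F 0 passed at 10 counts (where Ciart was not tested), with the squamous or B cell score, or without the libraries rich in squamous genes. With 1 library left out, 0 to 3 passed. At the nominal threshold, HFD F against HFD M called 2 and not 1 with the squamous or smooth muscle score, 0 without the libraries rich in squamous genes and 0 to 2 with 1 left out. HFD+E2 M against HFD M called 2 and not 1 under the block or without the squamous-rich libraries, and 0 to 3 with 1 left out. HFD M against CD M called 1 to 4 and the interaction 3 to 6 with 1 left out. With Arntl, 1 and not 3 passed in the 24 vehicle libraries, and 2 or 3 with 1 library left out. Beyond loss of genes or libraries by construction, the cause was not tested.

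Single values of members past either threshold in the main fit were also followed. The threshold was the adjusted one where the member passed it and for each slope on Arntl. Elsewhere it was nominal, as always for log2 TPM, which gives no adjusted p. Of 691 such values, 607 kept direction and side of the threshold, 83 lost the call, 1 gained it and 0 reversed. Of the 607, 38 were the slope of Bhlhe41 on Arntl staying without a call, and only this slope could gain one. Members not called in the main fit were not followed. On log2 TPM with 0.1 added, Per1 (-0.51) and Cry2 (-0.53) of these passed the nominal threshold in CD F against CD M. Samples of the same replicate number correlated over 0.1 in 5 of 6 pairs of CD F with CD M and of HFD+E2 M with HFD M and in 3 of 6 in the other comparisons (range of r from -0.523 to 0.601), and from 2 to 7 of 12 samples correlated best with their own number. Mean r was 0.198 for the same number and -0.037 for other numbers in CD F with CD M, and 0.158 and -0.031 in HFD+E2 M with HFD M. The same number had the higher mean in each comparison except HFD F with HFD M (-0.062 against -0.00016). What the number stands for is not given, so the main fits did not pair mice and the block is an alternative. Under the replicate block the genes called in CD F against CD M went from 435 to 941, while the edgeR adjusted p of Ciart was 0.000221 and that of Nr1d2 0.0686. Over all alternative fits, the median log2 fold change or slope of all genes moved by at most 0.0277. With DESeq2 size factors in place of TMM it moved by at most 0.00661. Log2 TPM is not among these fits, and its median gene differed by -0.16 between HFD+E2 M and HFD M. Depth limits Ciart and Bhlhe41, with as few as 3 and 6 counts in a library.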
